A study of Homo sapiens with 6 samples.

Results

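The genes described here encode membrane carriers of amino acids and of close relatives such as taurine, creatine and amine transmitters. They were taken from the count table by symbol alone, as every row whose whole symbol is SLC followed by 1, 3, 6, 7, 36, 38 or 43, the letter A and a number. That rule found 59 genes among 58735 rows, all annotated as protein-coding, and used no measured value. Messenger RNA was sequenced from PANC1, a human pancreatic ductal carcinoma line grown untreated (3 cultures), and from PANC1OR, an oxaliplatin-resistant subline of it (3 cultures). Oxaliplatin is a platinum drug that binds DNA, and PANC1OR was selected by passage in rising amounts of it. There is 1 parental and 1 resistant line, so the replicates measure the spread between cultures and not between resistant lines raised independently. The sources used here do not say whether the drug was present when the cells were harvested.

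Cells take up amino acids through several carrier families that differ in what drives them. SLC1, SLC6 and SLC38 carriers use the sodium gradient, SLC36 carriers use protons, SLC7 proteins either carry cationic amino acids alone or pair as light chains with the heavy chains SLC3A1 and SLC3A2, and SLC43 carriers let large neutral amino acids pass along their gradient. One heteromer of this kind, SLC7A11 with SLC3A2, imports cystine in exchange for glutamate and so feeds the synthesis of glutathione, the thiol that binds platinum drugs. Glutamine taken up by SLC1A5 or SLC38A2, and leucine brought in by SLC7A5 with SLC3A2, feed biosynthesis and the signalling of mTORC1, and several carrier genes are induced by the transcription factor ATF4 when amino acids run short.

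Reads assigned to genes ranged from 10199268 to 15875431 in PANC1 and from 12623721 to 26394388 in PANC1OR. The epithelial genes KRT8, KRT18 and SOX9 were high in all 6 libraries, and KRT19 measured 243 to 465 CPM in PANC1 and 15.7 to 36.9 in PANC1OR. Summed marker levels did not exceed 2.64 CPM for leukocytes, 0.55 for endothelium and 0.187 for acinar cells, and the 3 islet markers had no read. The fibroblast list summed to 81.0 to 95.8 CPM in PANC1 and 110.2 to 292.2 in PANC1OR, nearly all of it COL1A1, with COL1A2 and DCN at 1 read per line. PANC1OR replicate 3 stood apart from its replicates by base composition: against the mean of replicates 1 and 2, its median log2 difference was 1.32 over genes above 60% GC and -0.95 over genes below 40% GC. PANC1 replicate 2 differed from its replicates in the same sense but less, by 0.34 and -0.25. Results for the carriers are therefore given with and without PANC1OR replicate 3.

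Of the 59 carrier genes, 29 had enough reads to be tested, 23 had at least 1 read but too few, and 7 had no read in any library. Levels are given as CPM, the usual depth-scaled read count, here with TMM-adjusted library totals. The 7 without reads were SLC1A1 and SLC1A6, carriers of glutamate in kidney and cerebellum, SLC6A5 and SLC6A11, carriers of glycine and GABA, SLC7A4, SLC7A13 and SLC38A8. A count of 0 allows up to 0.0715 CPM over the PANC1 libraries and 0.0547 over the PANC1OR libraries, as 3 reads per line, and this limit covers counting error only. None of the untested genes passed 0.860 CPM in any library, nor 48 reads over all 6. Among these, SLC7A2, a cationic amino acid carrier, had 13 reads in PANC1 and 0 in PANC1OR, at least 5.66-fold lower. SLC6A15, a carrier of branched-chain amino acids and proline, had 14 and 34 reads, and SLC38A5, a glutamine carrier, had 6 and 20. The glial glutamate carriers SLC1A2 and SLC1A3 had 26 and 4 reads in PANC1 and 17 and 2 in PANC1OR. These counts are too low for more than a description.

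A few genes made up most of the carrier transcripts. On a per-length scale (CPM per kilobase of exon, mean ± SD, n = 3), SLC38A2 had the highest mean in both lines. This sodium-coupled glutamine and alanine carrier was at 120.8 ± 21.2 in PANC1 and 106.9 ± 38.4 in PANC1OR. In PANC1 the level of SLC7A5, the large neutral amino acid light chain, came next at 53.1 ± 1.59, then SLC38A1 at 34.0 ± 4.98 and SLC1A5, a glutamine exchanger, at 22.7 ± 4.34. SLC38A10, SLC7A1, SLC6A8, SLC3A2, SLC6A6 and SLC7A6 completed the leading 10, which held 91.15% of the summed per-length level. SLC1A5, SLC38A10 and SLC7A1 were neighbours within their spread.

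In PANC1OR the order below SLC38A2 was different. SLC38A1 was second at 68.9 ± 17.2 and SLC7A5 followed at 61.7 ± 31.6. The SDs of these levels overlapped each other and that of SLC38A2, at 106.9 ± 38.4. In PANC1OR replicate 3, SLC7A5 was above SLC38A2, at 467.6 against 407.2 CPM. The exon length of SLC7A5 is also shorter, 4764 against 6509 bases, so the order was reversed per length too. SLC3A2 at 21.0 ± 9.62, the taurine carrier SLC6A6 at 20.9 ± 3.78 and the cationic carrier SLC7A1 at 19.8 ± 1.87 could not be ordered beyond their spread. SLC7A11 moved from the 15th place in PANC1, at 2.60 ± 0.476, to the 10th in PANC1OR, at 8.93 ± 3.44. Summed over all 59 genes and not scaled by length, the level was 2087 to 2390 CPM in the PANC1 libraries and 2623 to 2769 CPM in the PANC1OR libraries. SLC38A1 alone went from a mean of 340.3 CPM in PANC1 to 690.5 in PANC1OR. Among the tested carriers, 17 had a positive and 12 a negative log2 fold change.

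**Figure D1:**
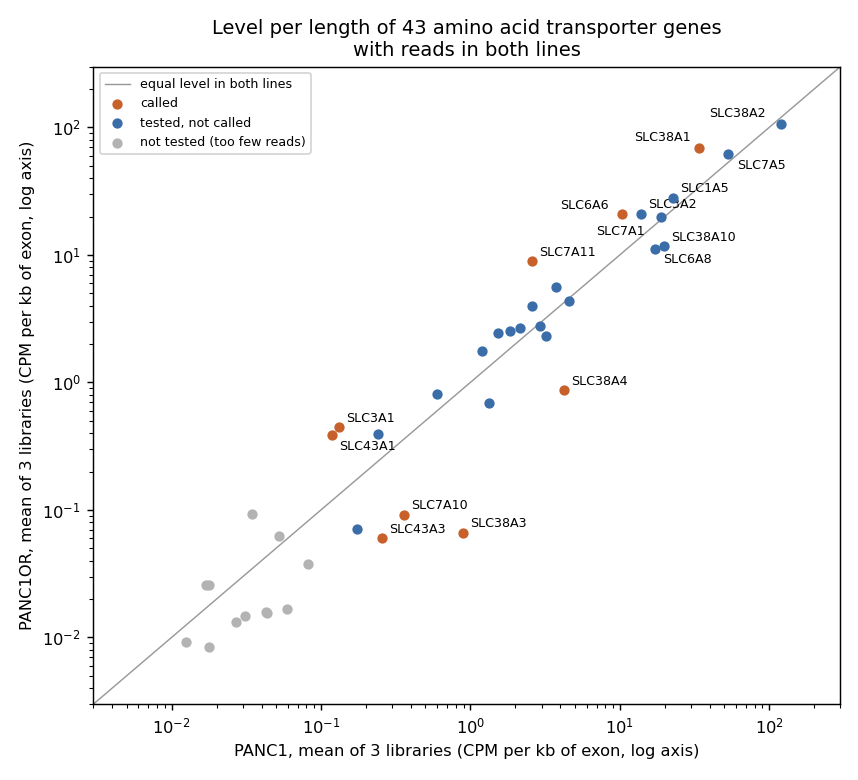
Mean level per length (CPM per kilobase of exon, 3 libraries per line, log axes) of the 43 carrier genes with reads in both lines, PANC1 on the x axis and PANC1OR on the y axis. Called genes are orange, tested genes that were not called blue, and untested genes grey; the line marks equal levels. SLC38A1, SLC6A6 and SLC7A11 sit above the line, and SLC38A4 and SLC38A3 below it.

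The comparison of the design is PANC1OR against PANC1. Among the 29 tested carrier genes, 9 were called at an adjusted p under 0.05 (edgeR's quasi-likelihood test with Benjamini-Hochberg adjustment over all tested genes), 5 higher and 4 lower in PANC1OR. That is 31.03% of the tested carriers. Of all 18751 tested genes, 17.8% were called, 10.3% higher and 7.5% lower. The cystine light chain SLC7A11, the heavy chain SLC3A1, the glutamine carrier SLC38A1, the taurine carrier SLC6A6 and the neutral carrier SLC43A1 rose. SLC38A3 and SLC38A4, both of the sodium-coupled neutral family, the light chain SLC7A10 and SLC43A3 fell. In bulk RNA, a lower level per cell and fewer cells with the transcript cannot be told apart. Of these 9, 4 passed the read filter through the libraries of only 1 line. Low in the other line, they were tested only because the first was over the filter. They were SLC38A3, SLC43A3 and SLC7A10 through PANC1 and SLC43A1 through PANC1OR. Among the 24 carriers above the filter in both lines, 5 were called. The background over genes above the filter in all 6 libraries was 15.4%.

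The lines' libraries did not overlap for 16 of the 29 tested carriers, 8 higher and 8 lower, where 36.5% of all tested genes did not overlap, 18.9% on the higher and 17.6% on the lower side. The 7 of these that were not called were SLC6A9, SLC7A7 and SLC38A7 on the higher side and SLC43A2, SLC6A8, SLC1A7 and SLC36A1 on the lower side. The 16 include all 5 carriers that passed the read filter through 1 line only: SLC43A1, SLC43A3, SLC1A7, SLC7A10 and SLC38A3. These 5 were tested only because all libraries of 1 line were over the filter, and the medians that follow include them. The median log2 fold change of the tested carriers was 0.31, against 0.04 over all tested genes, and 0.08 when PANC1OR replicate 3 was left out. The median absolute log2 fold change was 0.63, against 0.43. At the cutoffs in the series' design text, more than 2 log2 units in either direction at a false discovery rate under 0.01, SLC38A3 and SLC38A4 passed in the quasi-likelihood fit, against 6.25% of all tested genes. With the likelihood ratio test that the design text names, 4 carriers passed, SLC43A3 (-2.24, adjusted p = 2.50e-04) and SLC7A10 (-2.10, adjusted p = 6.88e-04) in addition, against 7.17% of all tested genes. Of these 4, SLC38A3, SLC43A3 and SLC7A10 passed the read filter through the PANC1 libraries only. SLC38A4 was at -1.91 without PANC1OR replicate 3, short of the cutoff on size.

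**Figure D2:**
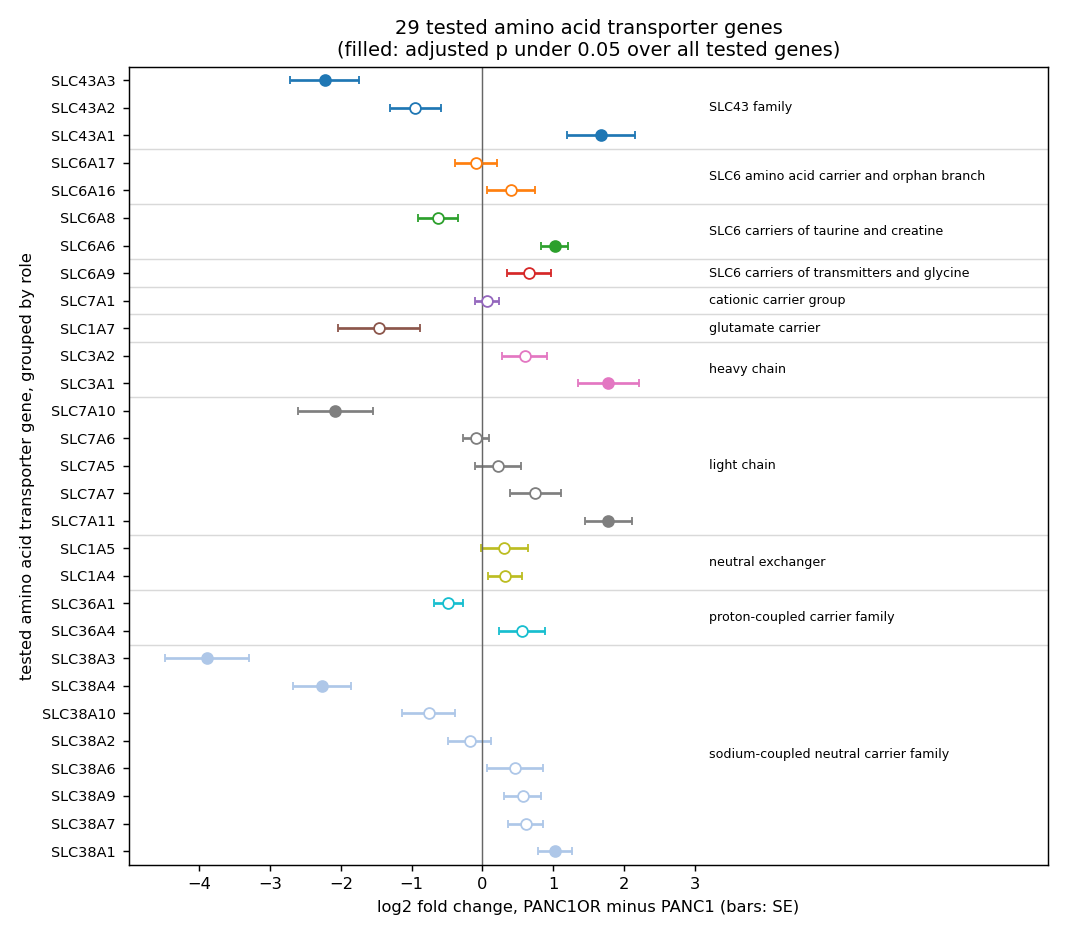
Log2 fold change of PANC1OR over PANC1 with its standard error (x axis) for the 29 tested carrier genes, grouped by role (y axis; colours mark the groups), with called genes as filled circles and the others open. The 5 called genes to the right lie between 1.02 and 1.78, and the 4 to the left between -3.89 and -2.08.

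The heteromeric carriers consist of a heavy chain that brings the pair to the surface and a light chain that transports. SLC7A11 (chr4:138164097-138242349), the cystine and glutamate exchanger, measured 29.3, 20.2 and 25.8 CPM in PANC1 replicates 1 to 3 and 102.7, 107.6 and 47.9 CPM in PANC1OR replicates 1 to 3. Every PANC1OR library was above every PANC1 library, and PANC1OR replicate 3 was the lowest of its line. The gene rose by 1.78 ± 0.33 on the log2 scale (± SE here and below; adjusted p = 0.00744), and by 2.05 without PANC1OR replicate 3 (adjusted p = 2.25e-05). The call held with each of the 6 libraries left out in turn. An antisense gene, SLC7A11-AS1, overlaps it and was itself called higher, from 0.734 to 2.06 CPM in PANC1 to 3.19 to 4.49 in PANC1OR (log2 fold change 1.47, adjusted p = 0.0374). Reads of the opposite strand cannot be told apart from its own, since the strand setting of the counting is not known.

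Its heavy chain SLC3A2, which also serves SLC7A5, SLC7A6 and SLC7A7, was not called. It measured 75.7, 108.6 and 81.0 CPM in PANC1 and 99.9, 97.9 and 205.4 in PANC1OR, so that only PANC1OR replicate 3 lay outside the PANC1 range (log2 fold change 0.60 ± 0.32, adjusted p = 0.260). Without that library its log2 fold change was 0.15 (adjusted p = 0.463). Per length, SLC7A11 stood at 25.6%, 12.3% and 21.1% of the SLC3A2 level in the PANC1 libraries and at 68.2%, 72.9% and 15.5% in PANC1OR. The share was about equal in PANC1OR replicates 1 and 2 and fell inside the PANC1 range in replicate 3. GC content is 35.4% for SLC7A11 and 53.8% for SLC3A2.

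SLC7A5, the most abundant light chain, measured 250.8, 261.3 and 246.7 CPM in PANC1 and 217.1, 197.5 and 467.6 in PANC1OR. Replicates 1 and 2 of PANC1OR lay under all PANC1 libraries and replicate 3 above all of them, and the gene was not called (log2 fold change 0.22 ± 0.32, adjusted p = 0.718). Without PANC1OR replicate 3 the sign turned, to -0.30 (adjusted p = 0.0583). A pseudogene, SLC7A5P1, carried 69 reads in PANC1 and 94 in PANC1OR, and the sources used here do not say how reads of near-identical copies were assigned. SLC7A6, an exchanger of cationic for neutral amino acids, was close to level at -0.09 ± 0.19. SLC7A7, its relative of kidney and gut, measured 0.795 to 1.57 CPM in PANC1 and 1.65 to 2.50 in PANC1OR (log2 fold change 0.75 ± 0.36, adjusted p = 0.203).

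The second heavy chain, SLC3A1 (chr2:44275458-44321494), partner of the kidney cystine carrier SLC7A9, was expressed at a low level. Its CPM were 0.685, 1.04 and 0.856 in PANC1 and 3.10, 4.12 and 1.49 in PANC1OR, with no overlap (log2 fold change 1.78 ± 0.43, adjusted p = 0.0238). The call was lost when any library other than PANC1OR replicate 3 was left out, at adjusted p from 0.0636 to 0.112. SLC3A1 overlaps PREPL on the opposite strand, and PREPL measured 108.4, 90.8 and 105.6 CPM in PANC1 and 188.9, 181.7 and 87.9 in PANC1OR. PREPL was thus high and low in the same libraries as SLC3A1 within PANC1OR, and reads of the pair cannot be told apart without the strand. The partner SLC7A9 had 9 reads in PANC1 and 6 in PANC1OR.

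SLC7A10 (chr19:33208664-33225850), a light chain that exchanges small neutral amino acids and D-serine, was at 0.934, 1.36 and 1.04 CPM in PANC1 and 0.112, 0.250 and 0.495 in PANC1OR. All PANC1OR values were under the lowest PANC1 value. It fell by 2.08 ± 0.53 on the log2 scale (adjusted p = 0.0291), and by 2.67 without PANC1OR replicate 3. Each of the other 5 libraries, left out in turn, ended the call, at adjusted p from 0.0837 to 0.119. LRP3 overlaps it on the opposite strand and measured 13.3 to 17.03 CPM in PANC1 and 4.75, 5.06 and 18.8 in PANC1OR.

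**Figure D3:**
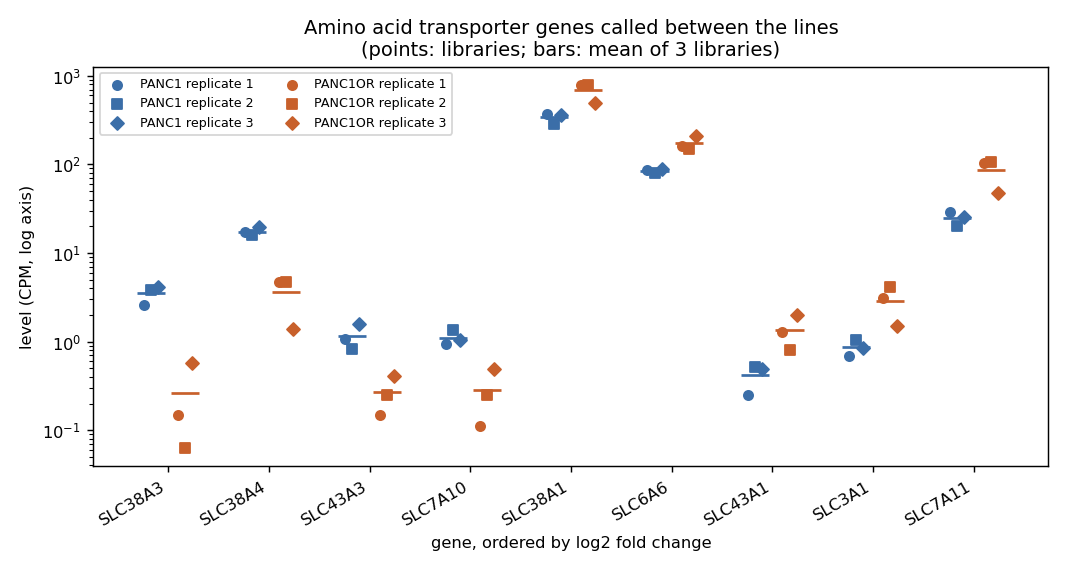
CPM in each library (y axis, log scale) for the 9 called carrier genes, ordered on the x axis by log2 fold change, with PANC1 in blue and PANC1OR in orange; each point is a library, its shape the replicate number, and each bar the mean of 3 libraries. The lines do not overlap for any of these genes, and PANC1OR replicate 3 is the lowest of its line for SLC7A11, SLC38A1, SLC38A4 and SLC3A1.

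Among the cationic carriers, which bring in arginine and lysine, only SLC7A1 was tested. It measured 150.9, 132.9 and 152.7 CPM in PANC1 and 144.8, 143.5 and 168.9 in PANC1OR. The ranges overlapped, and the log2 fold change was 0.07 ± 0.17 (adjusted p = 0.840). The sign turned to -0.03 without PANC1OR replicate 3.

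The sodium-coupled neutral family SLC38 supplied the largest share of the summed per-length level among the SLC families of the rule, 53.4 ± 4.36% in PANC1 and 50.5 ± 14.1% in PANC1OR. Its members moved in different directions, and 3 of them lie next to each other on chromosome 12. SLC38A1 ends 88170 bases before SLC38A2 begins, SLC38A2 ends 391987 bases before SLC38A4 begins, and no other protein-coding gene lies wholly between them. The 250 bases upstream of an annotated start of each are shown because these neighbours differed in level and in direction. They are RefSeq windows on GRCh38.p14, read 5′ to 3′ on the minus strand, with CG pairs in capitals.
SLC38A1 chr12:46267988-46268237: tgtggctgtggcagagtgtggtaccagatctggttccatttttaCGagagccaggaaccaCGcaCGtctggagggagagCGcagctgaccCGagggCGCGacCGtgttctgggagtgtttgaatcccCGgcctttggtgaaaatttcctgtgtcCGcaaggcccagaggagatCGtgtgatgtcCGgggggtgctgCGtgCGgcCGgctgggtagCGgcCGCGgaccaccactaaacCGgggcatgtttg
SLC38A2 chr12:46372774-46373023: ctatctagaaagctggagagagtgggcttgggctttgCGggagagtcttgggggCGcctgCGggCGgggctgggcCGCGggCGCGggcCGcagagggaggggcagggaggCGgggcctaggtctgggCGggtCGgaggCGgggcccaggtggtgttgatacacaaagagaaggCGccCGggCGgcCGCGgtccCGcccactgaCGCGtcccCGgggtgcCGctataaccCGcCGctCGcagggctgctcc
SLC38A4 chr12:46825998-46826247: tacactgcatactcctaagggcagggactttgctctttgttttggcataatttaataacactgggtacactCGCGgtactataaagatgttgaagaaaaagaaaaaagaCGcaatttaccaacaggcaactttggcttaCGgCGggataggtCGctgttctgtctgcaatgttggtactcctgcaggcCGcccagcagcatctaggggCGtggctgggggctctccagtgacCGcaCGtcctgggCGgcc
The windows hold 19, 26 and 11 CG pairs at 61.6%, 73.6% and 51.6% GC, against medians of 11 pairs and 58.0% over all upstream windows of the same length. SLC38A1 has 2 starts in the RefSeq table, and the one with more CG pairs is shown. Binding and methylation at these windows were not analysed here.

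SLC38A1 (chr12:46183063-46270017) is a plasma membrane carrier of glutamine, alanine and other small neutral amino acids. It measured 373.6, 283.0 and 364.3 CPM in PANC1 and 792.5, 787.2 and 491.7 in PANC1OR. All PANC1OR libraries were higher, replicate 3 by the least. The gene rose by 1.02 ± 0.24 (log2; adjusted p = 0.021), and by 1.2 without PANC1OR replicate 3 (adjusted p = 3.50e-04). Leaving out any of the other 5 libraries gave adjusted p from 0.0712 to 0.0809, which ends the call.

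SLC38A2, the system A carrier that starved cells increase, measured 845.8, 628.8 and 885.1 CPM in PANC1 and 838.7, 842.0 and 407.2 in PANC1OR. The ranges overlapped, and it was not called (log2 fold change -0.18 ± 0.30, adjusted p = 0.756). Without PANC1OR replicate 3 its log2 fold change was 0.08. Per length, SLC38A1 stood at 0.287, 0.293 and 0.268 of the SLC38A2 level in PANC1 and at 0.614, 0.608 and 0.785 in PANC1OR. This ratio of the neighbours separated the lines in every library, replicate 3 of PANC1OR included. GC content is 41.34% for SLC38A1 and 37.4% for SLC38A2.

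SLC38A4 (chr12:46764761-46832408), a liver and placenta carrier of neutral and cationic amino acids, went the other way. Its CPM were 17.1, 15.9 and 19.4 in PANC1 and 4.67, 4.68 and 1.40 in PANC1OR. No PANC1OR library came near the PANC1 values, and replicate 3 was the lowest. It fell by 2.26 ± 0.41 (log2; adjusted p = 0.00689) and by 1.91 without PANC1OR replicate 3, and it was called with each of the 6 libraries left out. The opposite-strand gene SLC38A4-AS1 measured 2.61 to 3.92 CPM in PANC1 and 2.31 to 3.06 in PANC1OR. Reads of the pair cannot be told apart without the strand.

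SLC38A3 (chr3:50205246-50221486), a system N glutamine carrier of liver, kidney and brain, had the lowest log2 fold change of the tested carriers. It measured 2.62, 3.87 and 4.10 CPM in PANC1 and 0.149, 0.0625 and 0.578 in PANC1OR, or 146 against 12 reads, a ratio of 15.9 (95% counting interval 8.83 to 31.5). Reads in PANC1OR were few and replicate 3 held the highest level of that line. The fitted log2 fold change was -3.89 ± 0.59 (adjusted p = 0.00272), and -4.84 without PANC1OR replicate 3. The call held with each of the 6 libraries left out, but the gene passed the read filter through the PANC1 libraries only.

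The other tested SLC38 genes were not called. SLC38A10, a little-studied relative, measured 149.4, 169.0 and 150.9 CPM in PANC1 and 62.1, 58.1 and 156.5 in PANC1OR. Replicates 1 and 2 of PANC1OR were far under PANC1 and replicate 3 was inside its range (log2 fold change -0.76 ± 0.37, adjusted p = 0.219, and -1.39 with adjusted p = 4.20e-05 without that library). SLC38A6 measured 8.67 to 11.0 CPM in PANC1 and 17.2, 18.4 and 5.95 in PANC1OR, with replicates 1 and 2 above every PANC1 library and replicate 3 under every one (log2 fold change 0.46 ± 0.40, adjusted p = 0.505). SLC38A10 has 63.9% GC and SLC38A6 40.8%.

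Several carriers sit on lysosomes, where mTORC1 reads amino acid supply. SLC38A9, the lysosomal arginine sensor, measured 10.1, 11.1 and 10.6 CPM in PANC1 and 16.6, 19.6 and 10.9 in PANC1OR, an overlap made by replicate 3 alone (log2 fold change 0.57 ± 0.26, adjusted p = 0.185). SLC38A7, which exports glutamine and asparagine from lysosomes, measured 17.1, 19.0 and 15.4 CPM in PANC1 and 21.7, 22.04 and 35.01 in PANC1OR. Its libraries did not overlap, but the difference did not pass the test (0.61 ± 0.25, adjusted p = 0.148).

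The proton-coupled SLC36A1, an exporter of small neutral amino acids from lysosomes, measured 24.4, 19.6 and 22.9 CPM in PANC1 and 15.4, 14.6 and 18.0 in PANC1OR. Its values were lower in all PANC1OR libraries, and it was not called (-0.48 ± 0.21, adjusted p = 0.159). Its relative SLC36A4 measured 43.1, 29.9 and 36.8 CPM in PANC1 and 66.2, 65.9 and 30.1 in PANC1OR, with replicate 3 inside the PANC1 range (0.56 ± 0.32, adjusted p = 0.295). Without PANC1OR replicate 3, SLC38A9 (adjusted p = 0.0032), SLC36A1 (0.0117) and SLC36A4 (0.0029) were called, and SLC38A7 was not (0.0758).

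In the SLC43 family, all 3 genes were tested and a called pair went in opposite directions. SLC43A3, a purine nucleobase carrier, and SLC43A1, a carrier of branched-chain amino acids and phenylalanine, lie 56953 bases apart on chromosome 11 with 1 protein-coding gene, RTN4RL2, wholly between them. SLC43A3 (chr11:57406954-57427580) measured 1.06, 0.836 and 1.59 CPM in PANC1 and 0.149, 0.250 and 0.413 in PANC1OR. It was lower in every PANC1OR library and fell by 2.23 ± 0.49 (log2; adjusted p = 0.0157). Leaving out PANC1 replicate 1 or 3, or either of PANC1OR replicates 1 and 2, ended the call, at adjusted p from 0.0574 to 0.0981.

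SLC43A1 (chr11:57484534-57515780) measured 0.249, 0.522 and 0.489 CPM in PANC1 and 1.27, 0.812 and 1.98 in PANC1OR. All PANC1OR libraries were higher, on 17 reads against 71 (ratio 3.19, 95% counting interval 1.86 to 5.79). It rose by 1.68 ± 0.48 (log2; adjusted p = 0.0465), close to the threshold, and lost its call without any 1 of the PANC1 libraries or PANC1OR replicate 1, at adjusted p from 0.0988 to 0.187. SLC43A2, a relative that carries the same kind of substrate, measured 12.9, 13.9 and 15.4 CPM in PANC1 and 4.78, 5.37 and 11.97 in PANC1OR. It was not called with all libraries (-0.95 ± 0.36, adjusted p = 0.122), and was without PANC1OR replicate 3 (-1.49, adjusted p = 2.06e-04).

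The SLC1 family holds glutamate carriers and the neutral exchangers SLC1A4 and SLC1A5. SLC1A5, which takes up glutamine, measured 66.7, 92.3 and 68.0 CPM in PANC1 and 68.3, 68.3 and 145.4 in PANC1OR. Only PANC1OR replicate 3 was outside the PANC1 range, and the log2 fold change of 0.31 ± 0.33 (adjusted p = 0.589) became -0.16 without it. SLC1A4, an exchanger of alanine, serine and cysteine, measured 13.9 to 15.7 CPM in PANC1 and 15.2 to 24.4 in PANC1OR and was not called (0.32 ± 0.24, adjusted p = 0.435). SLC1A7, a retinal glutamate carrier, was near the filter at 0.747, 1.04 and 1.04 CPM in PANC1 and 0.149, 0.250 and 0.743 in PANC1OR (-1.46 ± 0.58, adjusted p = 0.133).

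Of the 19 SLC6 genes, 5 were tested. SLC6A6 (chr3:14402576-14489349), the taurine carrier, measured 86.7, 79.1 and 89.4 CPM in PANC1 and 160.0, 150.1 and 208.4 in PANC1OR. Every PANC1OR library was well above PANC1, with replicate 3 the highest. It rose by 1.02 ± 0.19 (log2; adjusted p = 0.00771), and by 0.85 without PANC1OR replicate 3 (adjusted p = 4.42e-04). Leaving out PANC1 replicate 1 gave an adjusted p of 0.0509, and the call held with each of the other 5 left out. The opposite-strand gene GRIP2 stayed at or under 6.69 CPM.

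SLC6A8, the creatine carrier, measured 95.1, 103.5 and 97.4 CPM in PANC1 and 53.5, 45.5 and 92.6 in PANC1OR. Its libraries did not overlap, with replicate 3 just under the PANC1 values, and it was not called (-0.63 ± 0.28, adjusted p = 0.170). SLC6A9, the glycine carrier, measured 7.52 to 8.36 CPM in PANC1 and 9.68, 9.49 and 19.2 in PANC1OR (0.66 ± 0.31, adjusted p = 0.205). SLC6A17, a vesicular carrier of neutral amino acids, and the orphan SLC6A16 had overlapping ranges, with log2 fold changes of -0.09 ± 0.30 and 0.41 ± 0.34. The remaining 14 genes, which carry dopamine, serotonin, GABA, proline and other substrates, were not tested.

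The place of PANC1OR replicate 3 followed the GC content of the carriers. All 8 tested carriers below 45% GC were lower in replicate 3 than in replicates 1 and 2, by log2 differences of -1.51 to -0.68, and all 12 above 55% GC were higher, by 0.56 to 1.37. Of the 9 in between, 1 was lower. Median GC was 52.5% over the tested carriers and 47.5% over all tested genes. In PANC1 replicate 2, 6 of the 8 carriers below 45% GC were lower than in replicates 1 and 3, and 1 of the 12 above 55% GC was. What made the replicates differ was not tested.

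**Figure D4:**
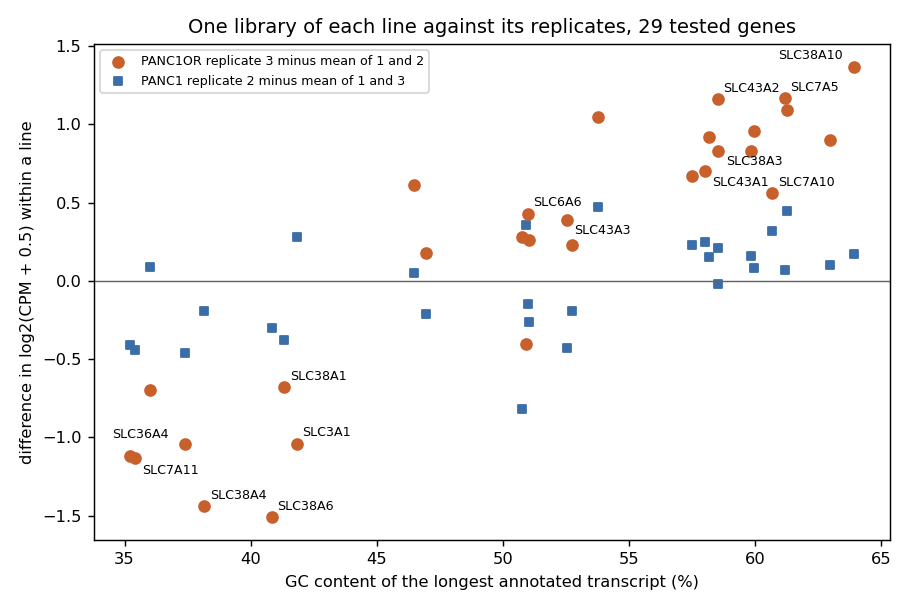
Difference in log2(CPM + 0.5) of PANC1OR replicate 3 from the mean of replicates 1 and 2 (orange circles), and of PANC1 replicate 2 from the mean of replicates 1 and 3 (blue squares), against the GC percentage of the longest annotated transcript, for the 29 tested carriers. Orange circles lie under 0 below 45% GC and over 0 above 55% GC; the blue squares span a narrower range.

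Without PANC1OR replicate 3, 19 carriers were called, 9 higher and 10 lower, against 44.1% of all genes then tested, 22.1% higher and 22% lower. All 9 calls of the full comparison were among them. The 10 further ones were SLC36A4, SLC38A6, SLC38A9 and SLC7A7 on the higher side and SLC1A7, SLC36A1, SLC38A10, SLC43A2, SLC6A17 and SLC6A8 on the lower side. With a correction of each library for GC content, which keeps all 6 libraries, 18 carriers were called, 9 in each direction, against 39% of all tested genes, 19.9% higher and 19.1% lower. The 9 original calls were again included, and SLC3A2 (adjusted p = 0.0238), SLC38A7 (0.00349) and SLC6A9 (0.00816) were called with the correction and not without PANC1OR replicate 3. SLC3A2 (0.00154) and SLC38A7 (0.0027) were also called with PANC1 replicate 2 and PANC1OR replicate 3 both left out, and SLC6A9 was not (0.103). Leaving out PANC1 replicate 1, 2 or 3 left 3, 5 and 4 carriers called, where the background was 9.86%, 12.2% and 9.31%, and leaving out PANC1OR replicate 1 or 2 left 4 and 5, where it was 12% and 12.5%. DESeq2 size factors, upper-quartile factors, the DESeq2 Wald test, the likelihood ratio test and no filter gave 9, 9, 9, 10 and 11 calls at backgrounds of 17.9%, 17.8%, 21.7%, 20.5% and 11.4%. The backgrounds were 12.4% with a replicate block (6 carriers) and 58.5% without PANC1 replicate 2 and PANC1OR replicate 3 (24 carriers).

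**Figure D5:**
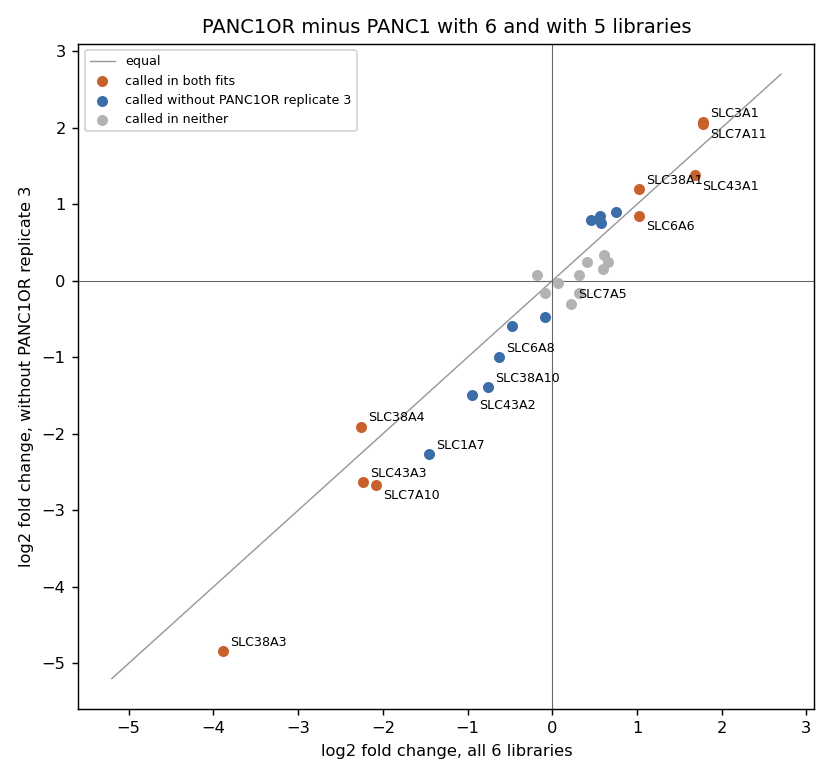
Log2 fold change of each of the 29 tested carriers with all 6 libraries (x axis) and without PANC1OR replicate 3 (y axis); the line marks equal values, and colour marks genes called in both, only without that library, or in neither. The 9 genes called in both keep their sign, and 10 more are called when the library is left out.

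The genes that handle amino acids beside these carriers were read from 6 lists, which were drawn up with earlier results of these data known, so that their counts are a description. The counts include called genes that passed the read filter through 1 line only, such as SLC17A7 and GLS2 through PANC1OR and SLC25A2 and GGT5 through PANC1. In the ATF4 list, 7 of 17 tested genes rose and 0 fell, where 10.3% of all tested genes rose and 7.5% fell. The median log2 fold change was 0.45, against 0.04 over all tested genes. Without PANC1 replicate 1, and without PANC1 replicate 3, 5 genes of this list were higher and 0 lower. In those settings 9.86% and 9.31% of all genes were called. Leaving out PANC1OR replicate 3 gave 10 called higher and 3 lower, where 22.1% of all genes were called higher and 22% lower, and GC offsets gave the same counts of 10 and 3 (19.9% and 19.1% of all genes). STC2, a secreted glycoprotein induced by this pathway, measured 16.7, 18.4 and 13.5 CPM in PANC1 and 135.4, 130.2 and 182.6 in PANC1OR, and rose by 3.21 ± 0.23 (adjusted p = 8.05e-05). TRIB3, a pseudokinase that restrains ATF4, measured 17.1 to 27.6 CPM in PANC1 and 68.1, 72.1 and 163.3 in PANC1OR, and rose by 2.29 ± 0.39 (adjusted p = 0.00519). Among the aminoacyl-tRNA synthetases, 5 of 20 rose and 1 fell (median 0.33), but 0 were called without PANC1 replicate 1, and 0 without PANC1 replicate 3. The shares of all genes called there were 9.86% and 9.31%. With PANC1OR replicate 3 left out, 10 synthetases were higher and 4 lower, against 22.1% and 22% of all genes. MARS1, which charges methionine tRNA, rose by 1.26 ± 0.23 (adjusted p = 0.00702), with adjusted p of 0.0503 and 0.0541 without PANC1 replicates 1 and 3.

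Of the genes of cystine, cysteine and glutathione synthesis, 6 of 18 rose and 3 fell (median 0.43), where 10.3% of all tested genes rose and 7.5% fell. Without PANC1 replicate 1, or without PANC1 replicate 2, 3 were higher and 2 lower, where 9.86% and 12.2% of all genes were called. GGT5, which cleaves leukotriene and glutathione conjugates outside the cell, measured 3.74 to 3.85 CPM in PANC1 and 0.112 to 0.248 in PANC1OR. It fell by 4.60 ± 0.38 (adjusted p = 1.40e-04). GGT5 was under the cutoff of 0.638 CPM in every PANC1OR library, so it passed the read filter through the PANC1 libraries only. MGST1 rose by 3.05 ± 0.28 (adjusted p = 2.27e-04) and CHAC1 by 3.60 ± 0.50 (adjusted p = 0.00193). TXNRD1 fell by 1.13 ± 0.17 (adjusted p = 0.00285). Of the genes of glutamine, glutamate, asparagine, serine and proline metabolism, 6 of 25 rose and 1 fell (median 0.19). When PANC1OR replicate 3 was left out, 8 were higher and 4 lower, against 22.1% and 22% of all genes, and the median turned to -0.05. BCAT1, which transfers the amino group of branched-chain amino acids to make glutamate, rose by 3.54 ± 0.35 (adjusted p = 3.15e-04). GLUL, the glutamine synthetase, was the gene that fell with all libraries, from 99.7, 164.5 and 113.3 CPM to 47.1, 41.5 and 51.3, by 1.43 ± 0.23 (adjusted p = 0.00406).

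In the list of amino acid sensing by mTORC1, 3 of 37 tested genes rose and 1 fell (median -0.16), where 17.8% of all tested genes were called. FNIP2, a folliculin partner that acts on the Rag GTPases, rose by 1.87 ± 0.20 (adjusted p = 5.14e-04). RRAGD, one of those GTPases, fell by 0.93 ± 0.20 (adjusted p = 0.0153), and lost its call without PANC1 replicate 1 (0.0709) or 3 (0.0753), and without PANC1OR replicate 1 (0.0587) or 2 (0.05, not under the threshold). Without PANC1OR replicate 3, 7 genes of this list were higher and 13 lower, against 22.1% and 22% of all genes. Without PANC1 replicate 1, and without PANC1 replicate 3, 1 was higher and 0 lower, where 9.86% and 9.31% of all genes were called. Without PANC1 replicate 2 the counts were 1 and 1 (12.2% of all genes). Leaving out PANC1OR replicate 1 gave 2 and 0 (12%). Of the 19 tested carriers of amino acids and peptides from other families, 5 rose and 3 fell (median 0.07). Without PANC1 replicate 3, 2 were higher and 0 lower, where 9.31% of all genes were called. Leaving out PANC1 replicate 1 or PANC1OR replicate 2 gave 4 and 0 (9.86% and 12.5% of all genes). With PANC1 replicate 2 or PANC1OR replicate 1 left out, the counts were 4 and 1 (12.2% and 12%). The counts without PANC1OR replicate 3 were 5 and 5, against 22.1% and 22% of all genes, and the median turned to -0.19. SFXN3, a mitochondrial serine carrier, rose by 1.99 ± 0.28 (adjusted p = 0.00196), and SLC25A12, the mitochondrial aspartate and glutamate exchanger, by 1.12 ± 0.19 (adjusted p = 0.0052).

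Upstream windows of 250 bases were at hand for 44 of the 59 carriers, 66 windows in all. The motif TGATGNAA, the letters of the amino acid response element read by ATF4 with C/EBP partners, was searched on both strands and found in 2 windows (3.03%), those of SLC1A3 and SLC1A5, against 3.14% of 35116 windows of all genes. The motif TGACNNNGC, the letters of the antioxidant response element, was found in 6 windows (9.09%), of SLC1A3, SLC1A5, SLC3A2, SLC7A1, SLC7A6 and SLC7A7, against 10.9% of all windows. The motifs can share the letters TGA and were counted separately. SLC1A3 was not tested, none of the others was called, and neither motif stood in the windows of the SLC38 neighbours printed above. The search covered no window of 15 carriers, 5 of them tested and all of those called: SLC38A3, SLC3A1, SLC43A3, SLC6A6 and SLC7A11.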

How the data were processed

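The deposited values are raw read counts per gene, made by the authors. Per the series' design text and the submitters' processing notes, the tools were FastQC 0.11.5, cutadapt within Trim Galore 0.4.2, STAR 2.5 on GRCh38, featureCounts of Subread 1.6.2 and edgeR 3.24.3 with a likelihood ratio test. Not given in the sources used here were the annotation release, the strand setting and the handling of multi-mapping reads, so reads of overlapping opposite-strand genes (36 of the 59 carriers have one) cannot be told apart. The table held 5 columns without values. The labels name an mRNA library kit.

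Genes were filtered with filterByExpr of edgeR 4.0.16 (minimum count 10, cutoff 0.638 CPM), scaled with TMM factors and tested with edgeR's quasi-likelihood test on all 6 libraries without covariates, with Benjamini-Hochberg adjustment over 18751 genes and a threshold of 0.05 (R 4.3.3). Log2 fold changes are PANC1OR minus PANC1, with the standard error taken from the F statistic. The test was checked on simulated counts that varied less between replicates than these libraries do, with no library shifted by GC content. That check does not measure error rates or power in these data. Alternatives were DESeq2 1.42.0 size factors and Wald test, upper-quartile factors, the likelihood ratio test, no filter, GC offsets, a replicate block, and each library left out. GENCODE release 44 on GRCh38 gave positions (1-based), exon length and GC content, and matched 58207 of 58735 rows. Ratios of reads carry exact 95% counting intervals.

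The carriers and lists were chosen with earlier results of these data known. Genes were named if called with a mean of at least 1 CPM, if among the 10 highest per length, if on a list of fixed carriers, or, in each related list, among up to 4 with the smallest p. Other carriers, such as SLC7A10, SLC43A3, SLC38A6, SLC38A7 and SLC7A2, were named after their values were seen, to complete small counts. SLC25A2 and GLS2 were named to give the limit of the read filter. Replicate libraries differed by more than sampling noise (chi-square per degree of freedom of 3.99 in the closest pair).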

Additional observations from a re-analysis of the deposited data

How the results depend on the processing

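Of the alternatives run, DESeq2 size factors, upper-quartile factors, the DESeq2 Wald test, the likelihood ratio test and no filter on low counts left all 9 carrier calls in place, with 9 to 11 carriers called. GC offsets raised the calls to 18 carriers, 74 related genes and 7312 of all genes, from 9, 41 and 3345. Leaving out 1 library at a time gave 3 to 19 carriers, 19 to 82 related genes and 1821 to 8663 of all genes, the highest without PANC1OR replicate 3. Leaving out PANC1 replicate 2 and PANC1OR replicate 3 together gave 24, 104 and 11422. The cause was not tested. Carriers that were not called changed sign without 1 library: their log2 fold changes then ranged from -0.48 to 0.08 for SLC6A17 (0.08 and 0.05 without PANC1OR replicates 1 and 2), -0.03 to 0.10 for SLC7A1, -0.30 to 0.43 for SLC7A5, -0.16 to 0.49 for SLC1A5 and -0.34 to 0.08 for SLC38A2, with the sign turned without PANC1OR replicate 3 for the last 4. With both libraries out, SLC7A1 was at -0.10, SLC7A5 at -0.28 and SLC1A5 at -0.00. SLC38A2 was then at -0.06, the sign of the full comparison.

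Whether same-numbered cultures were handled together is not given in the labels. Correlations of same-numbered deviations were 0.46, -0.45 and -0.22. They cannot decide it, since deviations from a mean of 3 libraries depend on each other. The highest correlation, 0.51, joined PANC1 replicate 2 and PANC1OR replicate 3, the libraries that differed from their replicates by GC content. With the replicate block, 6 carriers, 32 related genes and 2324 of all genes were called, and SLC38A1, SLC43A1 and SLC7A10 lost their calls (adjusted p = 0.052, 0.0842 and 0.0587). Carriers at about 1 CPM rest on few reads, and 3 libraries per line limit every test.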
